A study of Mus musculus with 4 samples.

Results

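The comparison described here is 1 column of expression values labelled hetero-KO against 1 column labelled WT, both carrying an age label of 18 months. They are 2 of the 4 columns of the value table that the authors deposited beside 4 scanner arrays, and they were chosen by their sample titles. The hetero-KO column stands for Rp58 hetero-KO mice, which carry a knockout of 1 copy of Rp58 (current symbol Zbtb18), and the WT column for wild-type mice. Tissue is labelled hippocampus for both. The descriptions give an age range of 12 to 18 months rather than 18 months. RNA from 3 samples was mixed for each group, so 1 value per gene and genotype exists, the spread between mice was not measured, and no difference below has a test. The labels used here give no knockout design, strain background or sex. All fold changes and log2 differences are hetero-KO relative to WT, and a level is the signal divided by the 75th percentile of its own array.

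Rp58 is a zinc finger protein with a BTB domain that binds DNA and represses transcription. In the developing cerebral cortex and hippocampus it acts in neural progenitors and newborn glutamatergic neurons, where known targets include proneural and Id genes. It stays expressed in mature glutamatergic neurons of both regions.

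The deposited pair did not come from any of the 4 scanner arrays. Over 59305 non-control spots, log2 values of the hetero-KO column correlated with the array of the same label at r = 0.9812, and those of the WT column at r = 0.9816, whereas each 4-month column equalled its own array at r = 1. The 2 columns correlated with each other at r = 0.9915. Both had a similar median level, 0.0987 in the hetero-KO column and 0.0998 in the WT column.

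The markers went against the tissue label as well. Of 25 neocortical layer markers, 20 were higher in both columns than on all 4 scanner arrays, against 21.4% of the 29721 genes measured in both columns. Cux2, a transcription factor of upper-layer neurons, had 3.73 in the hetero-KO column and 3.53 in the WT column, and 0.516 to 0.838 on the arrays. Rprm, a marker of deep layers, had 4.30 in the hetero-KO column and 4.37 in the WT column, and 0.704 to 0.992 on the arrays. The deposited pair stood well above every array in both genes.

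Hippocampal markers were low by the same measure. Of 11 CA1 pyramidal markers, 8 were lower in both columns than on all 4 arrays, as were 11 of 14 for CA2 and CA3 and 11 of 18 for dentate granule cells, against 31.5% of all genes. Prox1, the transcription factor of dentate granule cells, had 0.333 in the hetero-KO column and 0.455 in the WT column, and 1.60 to 2.18 on the arrays. Dsp, a desmosome protein enriched in granule cells, had 0.0133 in the hetero-KO column and 0.0174 in the WT column, and 0.793 to 1.47 on the arrays. Prox1 and Dsp were thus far below the arrays that carry the same tissue label. The lists as wholes were less far apart. The CA2 and CA3 median was 0.906 in the hetero-KO column and 1.05 in the WT column, and 1.04 to 1.47 on the arrays, and 3 of the 18 dentate markers were higher in both columns than on all arrays. No source used here says which tissue the 2 columns represent.

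**Figure D1:**
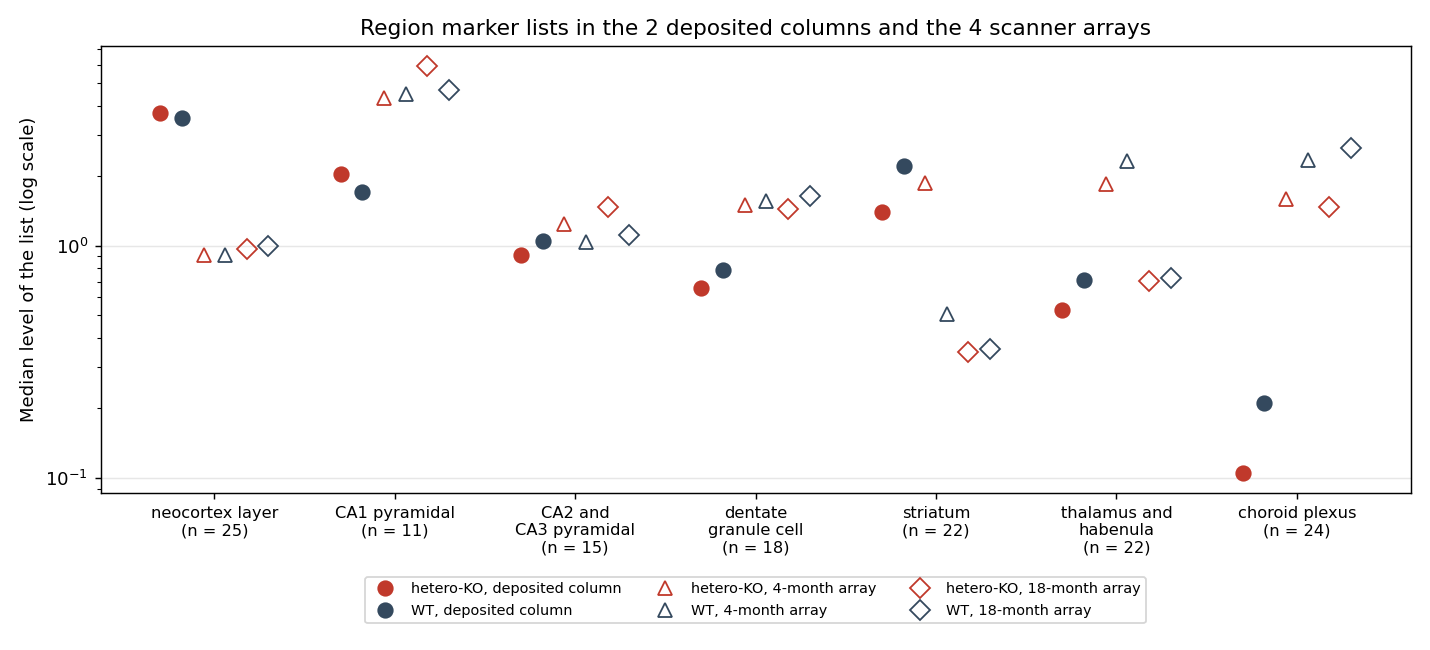
Median level of 7 region marker lists (log axis, ratio to each array's 75th percentile) in the hetero-KO and WT deposited columns (filled circles) and on the 4 scanner arrays (open symbols), with n the listed genes present on the array. The median of the 25 neocortical layer markers was 3.73 in the hetero-KO column and 3.53 in the WT column, above the 0.908 to 0.992 of the arrays, while the choroid plexus median was 0.105 and 0.209 against 1.47 to 2.64.

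Zbtb18 itself did not separate the columns. Its level was 11.4 in the hetero-KO column and 11.8 in the WT column, a log2 difference of -0.04, and the differences on the 4-month and 18-month scanner arrays were -0.20 and 0.18. Its single probe may lie outside the deleted part, so this value checks no label. The genotype labels were checked instead with a pair of transcripts beside Zbtb18 on chromosome 1 that were already known to be high in hetero-KO on the scanner arrays of this series. The probes of these transcripts, shown because they separate the genotypes most clearly, lie at chr1:179391247-179391306 (Gm29856) and chr1:179406323-179406382 (AK156859) of mouse build mm9.
Gm29856: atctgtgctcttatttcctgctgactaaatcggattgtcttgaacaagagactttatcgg
AK156859: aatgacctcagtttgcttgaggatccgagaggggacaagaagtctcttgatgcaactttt
Gm29856, a predicted gene, had a level of 0.825 in the hetero-KO column and 0.0523 in the WT column, a log2 difference of 3.98. The same probe differed by 4.41 on the 4-month arrays and 4.73 on the 18-month arrays. AK156859, known only by the accession of a cDNA, had 0.605 in the hetero-KO column and 0.139 in the WT column, a difference of 2.12, and differed by 3.78 and 4.25 on the arrays. Both transcripts were high in the sample labelled hetero-KO in all 3 pairs.

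Sex-linked genes separated the 2 columns as well. Xist, the non-coding RNA that coats the inactive X chromosome in female cells, had 0.233 in the hetero-KO column and 0.153 in the WT column. Eif2s3y, a Y-linked translation initiation factor, was not above the measurement floor of 0.00411 in the hetero-KO column, at 0.00256, and had 0.605 in the WT column, so it was at least 147-fold lower. Uty and Ddx3y, also Y-linked, were at least 31.3-fold and 23.7-fold lower. Summed over these 3 genes the level was 0.00574 in the hetero-KO column and 0.831 in the WT column.

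The same sum was 0.00471 for hetero-KO and 0.912 for WT on the 4-month arrays, but 1.94 for both genotypes on the 18-month arrays, where Xist had 0.00370 in hetero-KO and 0.00575 in WT. In these genes the pair labelled 18 months was like the 4-month arrays and unlike the 18-month arrays. The sex makeup of the mixed RNA thus differed between the 2 columns, and genotype and sex cannot be told apart in any difference below. Eif2s3x, the X-linked partner of Eif2s3y, was lower by one probe (0.137 in the hetero-KO column, 0.598 in the WT column, log2 -2.13) and not by its other probes (0.16 and 0.19).

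**Figure D2:**
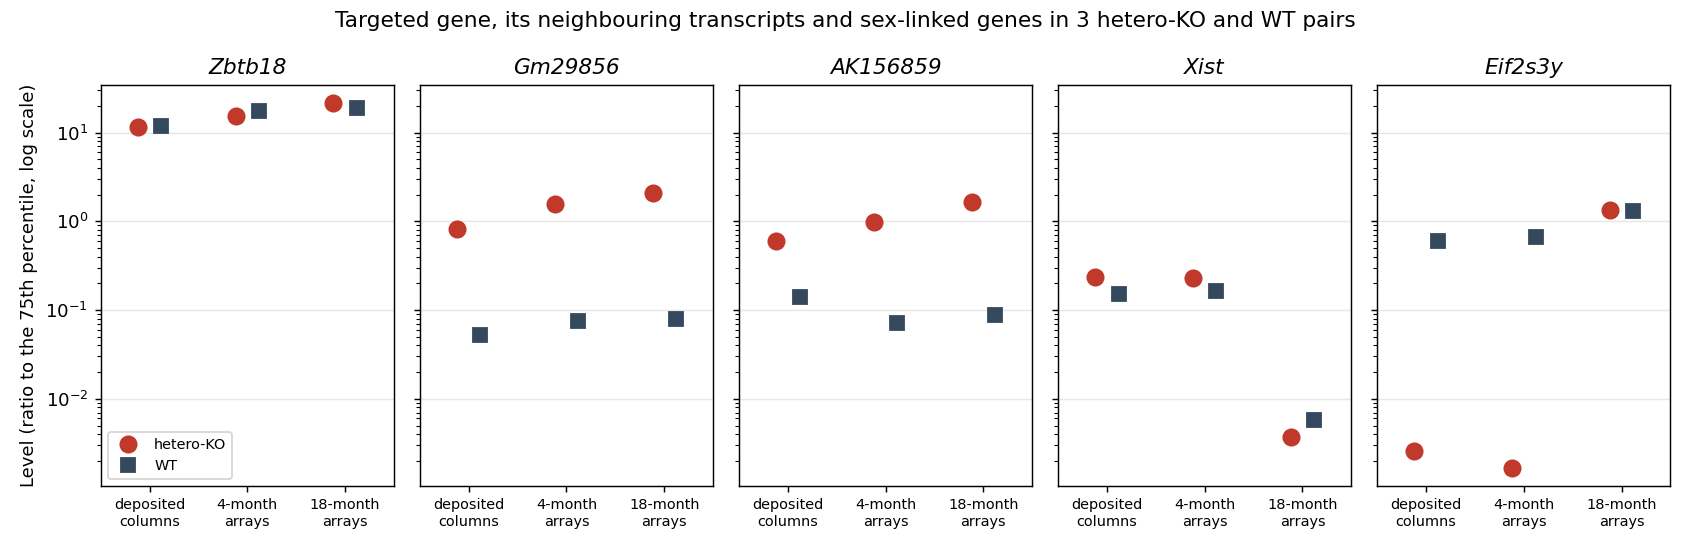
Level (log axis, ratio to the 75th percentile) of Zbtb18, the transcripts Gm29856 and AK156859, Xist and Eif2s3y in hetero-KO (circles) and WT (squares), for the deposited columns and the scanner arrays of both ages. Gm29856 and AK156859 were high in hetero-KO in all 3 pairs, while Eif2s3y was at 0.00256 in the hetero-KO column and 0.605 in the WT column, and at 1.33 in hetero-KO and 1.30 in WT on the 18-month arrays.

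The difference near Zbtb18 was local at the scale of 1 Mb. Of 45 probes within 1000 kb, 40 were measured in both columns. Apart from the 2 transcripts, these ranged from a log2 difference of -0.30 to 0.86, with 34 of 38 within 0.25 of 0. Only Gm36904 among them reached 1.5-fold (0.86, with 2.94 on the 4-month arrays and 2.35 on the 18-month arrays). It was dim, at 0.0170 in the hetero-KO column and 0.00938 in the WT column. Hmga2-ps1 was just under 1.5-fold, at 0.56, and was at 0.95 and 0.75 on the 4-month and 18-month arrays.

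Farther out on the chromosome, more probes were apart in the same direction in every pair. Of 42123 probes measured in the 2 columns and on all 4 arrays, 54 differed by 1.5-fold or more in the same direction in all 3 pairs, 20 being higher and 34 lower in hetero-KO. Within 10 Mb of the Zbtb18 probe these were 9 of 395 probes (2.28%), and elsewhere 45 of 41728 (0.108%). The windows were chosen after these values were seen, and no test was made. Widening the window to 20 Mb left the count at 9, of 691 probes. A probe of Tor3a lay just beyond that window, at -20.8 Mb. It differed by -1.51 in the pair and by -1.48 on the arrays of each age.

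Several of the shared probes within 10 Mb were not matched by other probes of the same gene. Adamts4, a secreted protease that cleaves proteoglycans and is made by oligodendrocytes, lies at -6.19 Mb relative to Zbtb18. One of its probes had 1.31 in the hetero-KO column and 3.66 in the WT column (log2 -1.48), and another 0.221 in hetero-KO and 0.495 in WT (-1.16), whereas the third was at 1.02 in hetero-KO and 0.870 in WT (0.23). On the arrays the first probe differed by -1.27 and -0.99 and the third by 0.42 at each age. Apoa2, an apolipoprotein of high-density lipoprotein, was lower by a dim probe (0.0358 in hetero-KO and 0.0610 in WT, log2 -0.77) and level by its brighter one (-0.02). Slamf8, a myeloid cell surface receptor, had 0.0255 in the hetero-KO column and 0.0119 in the WT column (1.1; 1.37 and 1.42 on the arrays) by its single probe.

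**Figure D3:**
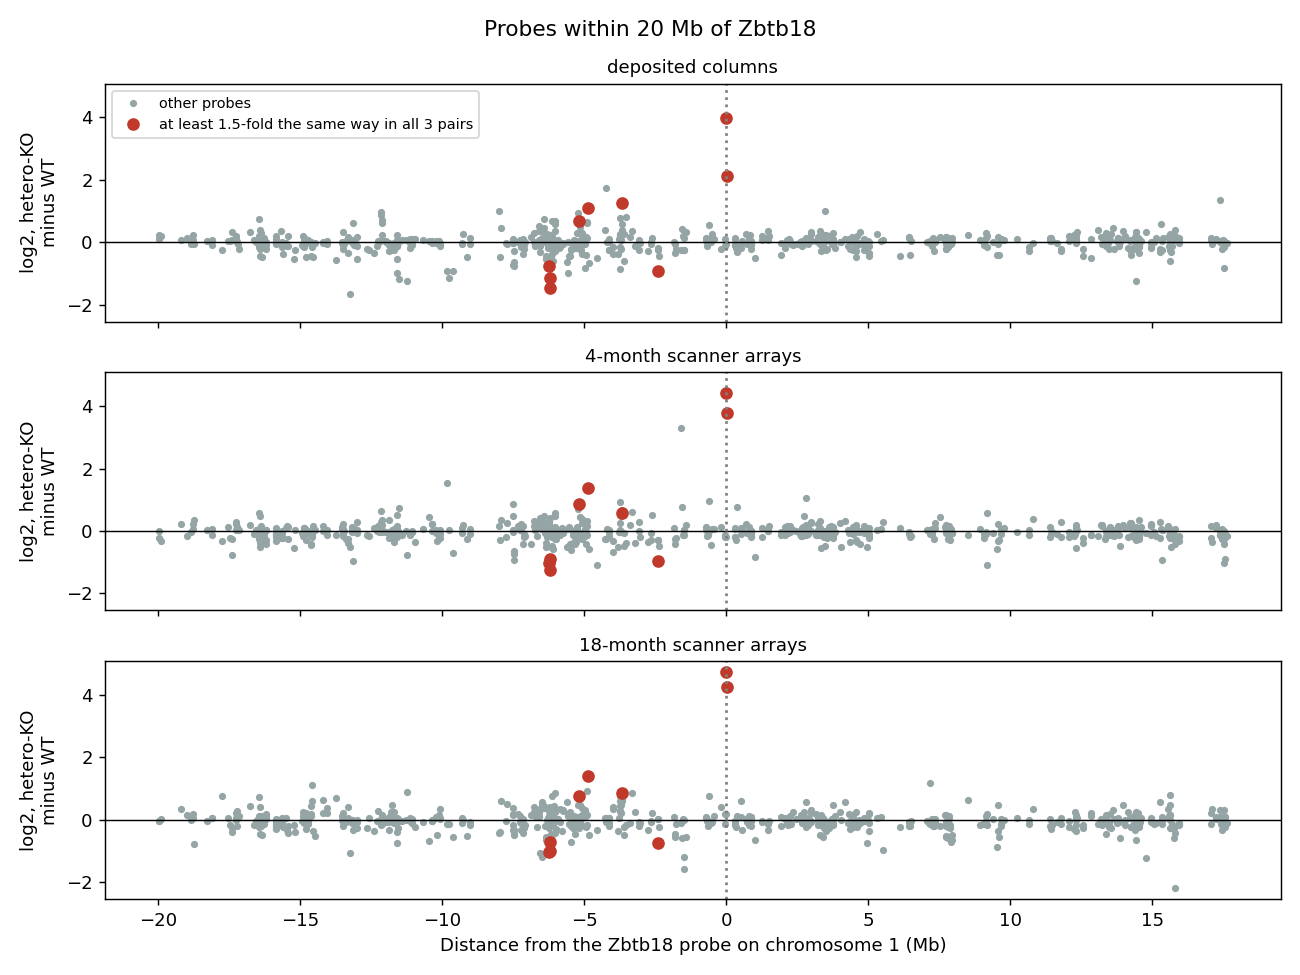
Log2 difference, hetero-KO minus WT, of probes measured in all 3 pairs against their distance from the Zbtb18 probe on chromosome 1 (Mb), for the deposited columns, the 4-month arrays and the 18-month arrays. Red points are the 9 probes at least 1.5-fold apart in the same direction in all 3 pairs, and they lie between -6.22 Mb and 0.0256 Mb.

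Across the whole table the 2 columns were close. Of 29721 genes measured in both, 207 (0.696%) were higher and 264 (0.888%) lower in the hetero-KO column by 2-fold or more, and at 1.5-fold the counts were 656 (2.21%) and 830 (2.79%). Above 0 lay 51.3% and below 0 lay 48.7%. On the arrays, genes were counted by another filter, the scanner software's test against background in both genotypes. By 2-fold or more, 0.712% of 28357 genes were higher and 0.628% lower on the 4-month arrays. On the 18-month arrays 0.526% of 27580 genes were higher and 0.602% lower. A further 796 genes were measured in the hetero-KO column alone and 910 in the WT column alone, of which 218 had a bound of 2-fold or more higher and 203 lower.

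Most of the large differences were in dim genes. Of the 471 genes past 2-fold, 445 had a mean level under 0.1. The SD of the log2 difference over genes was 0.539 from the floor to a level of 0.02 and 0.0860 at levels of 10 or more. Spots of the 300 probes printed 10 times had a median SD of 0.0281, which measures spot error on mostly bright probes and no biological spread. At a mean level of at least 0.1, 6 of 18382 genes (0.0326%) were 2-fold higher and 20 (0.109%) 2-fold lower, and 42 (0.228%) and 106 (0.577%) passed 1.5-fold, with 52.9% above 0. This minimum is one of 4 that were looked at.

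Genes of the choroid plexus epithelium, the tissue that secretes cerebrospinal fluid, made up the clearest group. Of 24 markers, 21 were lower in the hetero-KO column, 16 by at least 1.5-fold and 8 by at least 2-fold, and none was 1.5-fold higher, against the 2.79% and 0.888% of all genes given above. The median log2 difference was -0.88, with all genes at 0.00. Ttr, the thyroxine carrier secreted by this epithelium, had 3.49 in the hetero-KO column and 15.8 in the WT column (-2.18). Slc4a5, a bicarbonate transporter, had 0.0191 in hetero-KO and 0.117 in WT (-2.61), and both of its probes were lower. Kcne2, a potassium channel subunit, had 0.0612 in hetero-KO and 0.273 in WT (-2.16).

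Of the other members, Col8a1, Slc5a5 and Cldn2 were above 0, by at most 0.20, and the rest were below. Aqp1, a water channel, was at -1.77, F5, coagulation factor V, at -1.66, and Folr1, a folate receptor, at -1.56. The transcription factor Otx2 had 0.119 in the hetero-KO column and 0.215 in the WT column (-0.85), and Kl, the Klotho hormone co-receptor, 0.147 in hetero-KO and 0.275 in WT (-0.90). Probes of 1 gene disagreed in places: Cldn2 was at 0.20 by its brighter probe and -2.66 by the other, Trpv4 at -0.39 and 2.32, and the probes of Otx2 reached -0.09. Summed over the list the level was 23.9 in the hetero-KO column and 42.7 in the WT column, and 157 to 229 on the scanner arrays. The median was negative on the arrays too, -0.40 at 4 months and -0.78 at 18 months. In bulk RNA, fewer cells of a type and less RNA per cell cannot be told apart, and how much of this tissue each sample held was not measured.

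Of the 26 genes past 2-fold with a mean level of at least 0.1, several were in no list, and those given here were chosen after their values were seen. Grn, the lysosomal protein progranulin, had 10.9 in the hetero-KO column and 24.9 in the WT column (-1.18), although another of its 3 probes was at 0.16. Syt10, a synaptotagmin, had 0.0531 in hetero-KO and 0.219 in WT (-2.05), with its second probe at 0.39. Single probes gave Ecrg4 (0.178 in hetero-KO, 0.568 in WT, -1.68), Wfdc2 (-1.33), the zinc transporter Slc39a4 (-1.19), Cpa4 (-1.1), C1galt1 (-1.01) and, in the other direction, the receptor Qrfpr (0.277 in hetero-KO, 0.138 in WT, 1.0). On the 4-month and 18-month arrays Ecrg4 was at -0.43 and -0.85, Wfdc2 at -0.35 and -1.15, Grn at -0.34 and 0.18, and Syt10 at -0.86 and 1.0.

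Markers of meningeal fibroblasts were lower by less than those of the choroid plexus. All 19 were lower, against 48.7% of all genes, with a median of -0.37 and a range from -0.68 to -0.17. At least 1.5-fold lower were 3 of them, against 2.79% of all genes. Col3a1 and Col1a1, fibrillar collagens, had 0.0847 and 0.240 in the hetero-KO column, and 0.135 and 0.378 in the WT column, and the 4 probes of Col1a1 ran from -0.73 to 0.11. The transporter gene Slc13a4 had 1.52 in hetero-KO and 2.41 in WT (-0.66). The list summed to 12.1 in the hetero-KO column and 16.1 in the WT column. Of 15 mural cell markers 1 was higher (median -0.12), and of 20 endothelial markers 7 (median -0.04), none 1.5-fold apart.

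Microglial genes split by kind. Of 22 genes of disease-associated microglia, the state that microglia take around plaques and in ageing, 19 were lower, 10 by at least 1.5-fold and 7 by at least 2-fold, with a median of -0.43. Of all genes 48.7% were lower, 2.79% by 1.5-fold and 0.888% by 2-fold. The share 2-fold apart in either direction fell with mean level. It was 5.22% from the floor to 0.02, 3.67% from 0.02 to 0.05, 1.88% from 0.05 to 0.1 and 0.274% from 0.1 to 1. Cst7, a cystatin, had 0.0132 in the hetero-KO column and 0.0707 in the WT column (-2.42). Gpnmb, a glycoprotein of phagocytes, had 0.0156 in hetero-KO and 0.0713 in WT (-2.20), and Clec7a, the beta-glucan receptor dectin-1, 0.0346 in hetero-KO and 0.120 in WT (-1.79), with its second probe at 0.00. The brighter members were mostly closer: Apoe, the lipid carrier, was at -0.09 and Cd68, a lysosomal protein, at -0.19. Lgals3 was an exception, at 0.0812 in hetero-KO and 0.246 in WT (-1.60), with its other probe at -1.18. In 13 members with a mean level of at least 0.1 the median was -0.17.

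Homeostatic microglial markers showed no such distance, with 6 of 22 higher, a median of -0.06 and none 1.5-fold apart. Of 9 genes of MHC class II antigen presentation 8 were lower and 3 were at least 1.5-fold lower (median -0.47), against 48.7% and 2.79% of all genes. H2-Aa, the farthest, was dim, at 0.00867 in hetero-KO and 0.0201 in WT (-1.21). H2-Ab1 had 0.190 in the hetero-KO column and 0.350 in the WT column (-0.88) and all 4 of its probes were lower, and Cd74, the invariant chain, had 0.111 in hetero-KO and 0.213 in WT (-0.94). Border macrophage markers had 2 of 13 higher, against 51.3% of all genes, and a median of -0.25. The chemokine Ccl8 was farthest (0.00645 in hetero-KO and 0.0228 in WT, -1.82). The complement component C4b had 2.06 in the hetero-KO column and 2.95 in the WT column (-0.52), against 5.04 in hetero-KO and 4.99 in WT on the 4-month arrays, and 27.7 in hetero-KO and 21.3 in WT on the 18-month arrays.

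**Figure D4:**
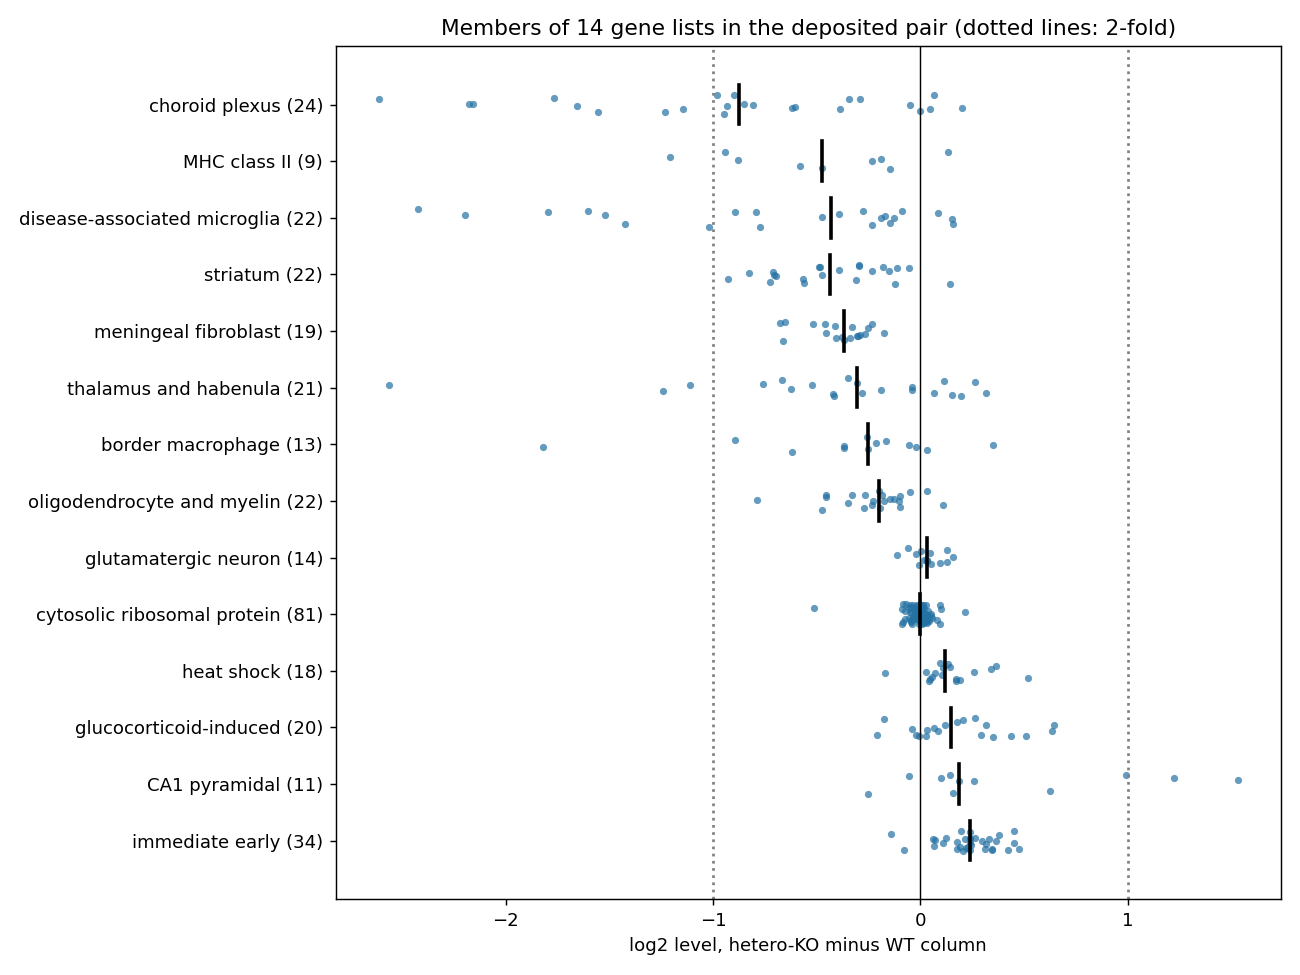
Log2 difference, hetero-KO minus WT, of each measured member of 14 gene lists in the deposited pair. Points are genes, black bars are list medians, dotted lines mark 2-fold, and numbers in brackets count the members measured in both columns. Choroid plexus genes reach -2.61 with a median of -0.88, ribosomal protein genes lie close to 0, and immediate early genes have a median of 0.24 with none past 0.48.

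Markers of regions next to the cortex and hippocampus also differed. Of 22 striatal markers 21 were lower, 6 by at least 1.5-fold and none by 2-fold, with a median of -0.43. Of all genes, 48.7% were lower and 2.79% lower by 1.5-fold. Drd1, the D1 dopamine receptor, had 1.83 in the hetero-KO column and 2.71 in the WT column (-0.56), and both of its probes were lower. Rxrg, a retinoid receptor of striatal neurons, had 0.933 in hetero-KO and 1.78 in WT (-0.93), and Ppp1r1b, the dopamine-regulated phosphatase inhibitor DARPP-32, 7.61 in hetero-KO and 11.3 in WT (-0.57). Penk, which encodes enkephalin, was close, at 26.7 in hetero-KO and 29.0 in WT (-0.12). The list summed to 83.7 in the hetero-KO column and 99.0 in the WT column.

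Thalamic and habenular markers had 6 of 21 higher, 6 at least 1.5-fold lower and 3 at least 2-fold lower (median -0.31), against 51.3%, 2.79% and 0.888% of all genes. Prkcd, a protein kinase C of thalamic relay neurons, had 0.283 in the hetero-KO column and 0.612 in the WT column (-1.11), and its 3 probes lay between -1.11 and -1.04. Shox2, a homeobox factor of the thalamus, had 0.0203 in hetero-KO and 0.120 in WT (-2.56). Tnnt1, a troponin used as a thalamic marker, had 0.767 in hetero-KO and 1.18 in WT (-0.62). Pou4f1, a habenular transcription factor, was at 0.12.

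Oligodendrocyte and myelin genes had 2 of 22 higher, against 51.3% of all genes, and a median of -0.20. Against 2.79% of all genes, 1 gene of the list was at least 1.5-fold lower. That gene was Klk6, a secreted protease (0.148 in the hetero-KO column, 0.256 in the WT column, -0.79). Aspa, which breaks down N-acetylaspartate, was at -0.47. Mbp, the myelin basic protein, had 9.71 in hetero-KO and 9.0 in WT (0.11), with a probe at -0.24. Among astrocyte markers 4 of 18 were higher (median -0.05). Of these, 1 was 1.5-fold higher and 1 was 1.5-fold lower. The lower one was Gfap, the intermediate filament of reactive astrocytes, at 1.35 in the hetero-KO column and 2.09 in the WT column (-0.63).

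Neuronal activity genes stood on the opposite side. Of 34 immediate early genes, which neurons transcribe within minutes of activity, 32 were higher in the hetero-KO column, against 51.3% of all genes, with a median of 0.24 and a range from -0.14 to 0.48. None passed 1.5-fold. Fos had 7.61 in the hetero-KO column and 6.10 in the WT column (0.32). Egr2, a zinc finger factor, had 7.16 in hetero-KO and 5.70 in WT (0.33), and Nr4a1, a nuclear receptor, 37.7 in hetero-KO and 30.7 in WT (0.30). Arc, which acts at synapses in AMPA receptor uptake, had 41.6 in hetero-KO and 35.9 in WT (0.21), and Egr1 26.6 in hetero-KO and 25.3 in WT (0.07). Fosl2 was farthest, at 3.72 in hetero-KO and 2.68 in WT (0.47), though its second probe was at -0.07. Nr4a3 (-0.14) and Ier2 (-0.08) were the members on the other side.

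The list was also higher in hetero-KO on the arrays, with a median of 0.24 at 4 months and 0.14 at 18 months. Its summed level was 264 in the hetero-KO column and 227 in the WT column, and 111 to 136 on the 4 arrays. Both columns were above all 4 arrays in 29 of the 34 genes, against 21.4% of all genes and 20 of 25 neocortical layer markers. Time from cage to dissection, which moves these genes, is not stated in the labels.

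A full cAMP response element, the palindrome TGACGTCA bound by CREB, was searched in the 250 bases before the start of each gene on both strands. It was in 4 of the 27 immediate early genes with a RefSeq promoter (14.8%), against 1.77% of 27025 genes and 3.06% of genes with a mean level of at least 0.1. The promoters of the 4 holders are shown because the list as a whole was higher, not for the size of their own differences, which are given below. They come from RefSeq, build GRCm38.p6, with the element in capitals: Arl4d on the plus strand (chr11:101665291-101665540), Btg2 on the minus strand (chr1:134079156-134079405), Dusp1 on the minus strand (chr17:26508473-26508722) and Maff on the plus strand (chr15:79347270-79347519).
Arl4d: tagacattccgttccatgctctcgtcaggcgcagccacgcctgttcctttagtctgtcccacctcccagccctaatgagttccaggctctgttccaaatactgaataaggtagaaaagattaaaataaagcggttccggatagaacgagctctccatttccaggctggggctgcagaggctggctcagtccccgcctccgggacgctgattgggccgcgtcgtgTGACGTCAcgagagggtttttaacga
Btg2: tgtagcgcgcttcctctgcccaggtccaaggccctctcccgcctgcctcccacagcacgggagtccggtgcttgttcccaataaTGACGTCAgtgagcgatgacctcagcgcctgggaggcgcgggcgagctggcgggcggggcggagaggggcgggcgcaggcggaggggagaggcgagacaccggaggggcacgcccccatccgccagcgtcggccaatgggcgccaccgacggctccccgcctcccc
Dusp1: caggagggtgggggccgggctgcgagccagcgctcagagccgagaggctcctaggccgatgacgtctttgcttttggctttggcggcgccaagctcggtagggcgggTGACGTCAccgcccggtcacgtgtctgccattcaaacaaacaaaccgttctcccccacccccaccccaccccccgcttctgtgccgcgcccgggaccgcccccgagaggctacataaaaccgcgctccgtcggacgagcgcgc
Maff: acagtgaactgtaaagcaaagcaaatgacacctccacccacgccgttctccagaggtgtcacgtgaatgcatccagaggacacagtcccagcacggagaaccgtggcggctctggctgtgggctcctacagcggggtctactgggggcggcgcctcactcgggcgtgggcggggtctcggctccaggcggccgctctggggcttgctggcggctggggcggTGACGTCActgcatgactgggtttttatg
Arl4d, a small GTPase, had a level of 1.71 in the hetero-KO column and 1.38 in the WT column (0.31). Maff, a basic leucine zipper factor, had 0.138 in hetero-KO and 0.117 in WT (0.24). Dusp1, a MAP kinase phosphatase, had 7.76 in hetero-KO and 7.44 in WT (0.06), and Btg2, an antiproliferative factor, 1.08 in hetero-KO and 1.04 in WT (0.06). The 4 holders thus lay between 0.06 and 0.31.

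A pair of other motifs was searched in the same window, and all 3 were chosen after the list results were seen. The core ACATCTG recognised by Rp58 was in 4.30% of all promoters and 2.89% of those of genes with a mean level of at least 0.1. It was in 2 of 21 (9.52%) of such genes at least 1.5-fold higher, in 3 of 61 (4.92%) of those at least 1.5-fold lower in 3 of 27 (11.1%) of immediate early genes and in 0 of 17 choroid plexus promoters. TAATCC, the core bound by Otx2, was in 1 of 17 choroid plexus promoters (5.88%), in 0 of 27 immediate early promoters and in 7.21% of all. A match is a description of letters and not a bound site.

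Glucocorticoid-induced and heat shock genes also had positive medians, and the p53 and DNA repair list did not (9 of 24 higher, median -0.05). Of 20 glucocorticoid-induced genes 15 were higher, 2 by at least 1.5-fold, with a median of 0.15, against 51.3% and 2.21% of all genes. Cebpd, a leucine zipper factor, had 2.69 in the hetero-KO column and 1.73 in the WT column (0.64). Cdkn1a, the p21 cell cycle inhibitor, had 1.44 in hetero-KO and 0.926 in WT (0.63), with 0.43 by its second probe. Sgk1, a glucocorticoid-induced kinase, was at 0.51 by one probe and -0.54 by the other, and Fkbp5, a chaperone of the receptor, was close, at 1.33 in hetero-KO and 1.31 in WT (0.03), though its probes reached 0.54. Of 18 heat shock genes 17 were higher, none by 1.5-fold, with a median of 0.12. Hspb1, a small heat shock protein, had 5.79 in hetero-KO and 4.05 in WT (0.52), and Hspa5, the chaperone of the endoplasmic reticulum, 21.1 in hetero-KO and 16.6 in WT (0.34).

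Several hippocampal markers were higher in the hetero-KO column although low in both columns. Among CA1 markers 9 of 11 were higher and 4 passed 1.5-fold (median 0.19), against 51.3% and 2.21% of all genes. On the arrays 5 of 11 were higher at each age, with medians of -0.11 at 4 months and -0.02 at 18 months. Spink8, a protease inhibitor gene, had 0.392 in the hetero-KO column and 0.136 in the WT column (1.53), and 4.26 to 6.79 on the arrays. Fibcd1, a chitin receptor, had 0.0735 in hetero-KO and 0.0315 in WT (1.22), and Lefty1, a Nodal antagonist, 0.103 in hetero-KO and 0.0518 in WT (0.99). Gpr161, another CA1 marker, was at 0.70 and 0.62 by separate probes. Lefty1 and Gpr161 lie on chromosome 1, as does Zbtb18, and any part of that position in their values was not tested. Lct, which encodes lactase and marks dentate granule cells, had 0.206 in hetero-KO and 0.0963 in WT (1.1), and 4.14 to 8.50 on the arrays. On the 4-month and 18-month arrays Spink8 was at -0.40 and -0.04, Lefty1 at -0.50 and -0.17, and Lct at -0.55 and -0.32, all below 0. Fibcd1 was above 0 on the arrays of both ages, at 0.21 and 0.15. The CA2 and CA3 list had 8 of 14 higher and a median of 0.06. The dentate list did not follow Lct: 8 of 18 were higher, with a median of -0.04, and Prox1 was at -0.45.

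Principal neuron and housekeeping genes were close in the pair. Of all genes 51.3% were higher. Of 25 neocortical layer markers 15 were higher, with a median of 0.01 and none at 1.5-fold. Glutamatergic markers had a median of 0.03 (10 of 14 higher) and a range from -0.11 to 0.16, and interneuron markers one of -0.06 (7 of 23 higher). The medians were -0.00 for 81 cytosolic ribosomal protein genes, 0.01 for 82 nuclear genes of the respiratory chain and 0.03 for 38 proteasome genes.

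Genes of the Id, proneural and Notch systems, in which Rp58 acts in progenitors, were mostly close, with a median of -0.02. Of 17 genes 6 were higher, against 51.3% of all genes. Notch1, the receptor, had 1.54 in the hetero-KO column and 2.99 in the WT column (-0.95), with -0.30 by its second probe. Hes5, a Notch target, had 4.01 in hetero-KO and 5.28 in WT (-0.40), whereas Hes1, another, had 0.175 in hetero-KO and 0.131 in WT (0.42). Neurog2, the proneural factor that Rp58 represses, was dim, at 0.0251 in hetero-KO and 0.0214 in WT (0.23).

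**Figure D5:**
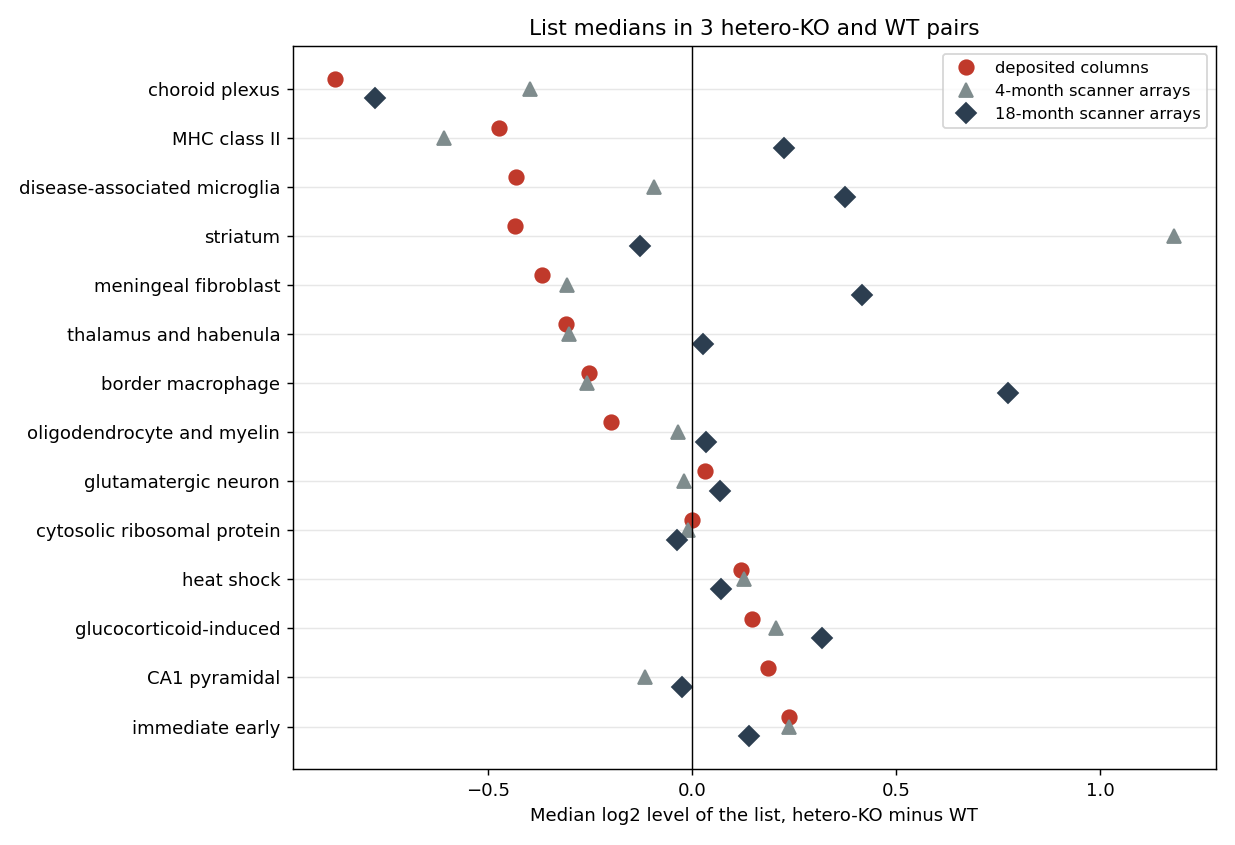
Median log2 difference, hetero-KO minus WT, of 14 gene lists in the deposited columns (circles), the 4-month arrays (triangles) and the 18-month arrays (diamonds). Choroid plexus is negative in all 3 (-0.88, -0.40 and -0.78) and immediate early genes positive (0.24, 0.24 and 0.14), while the striatal list is at -0.43 in the pair and 1.18 on the 4-month arrays.

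Genes that separated the genotypes at both ages on the scanner arrays mostly leaned the same way in the pair. Of 57 genes up by 1.5-fold or more at both ages 37 were higher in the pair, with a median of 0.22, and 15 of them passed 1.5-fold. The 57 include Gm29856 and AK156859, which were already known to be high in hetero-KO on the arrays. Of 116 at least 1.5-fold lower at both ages 74 were lower, with a median of -0.18, and 26 passed 1.5-fold. Of all 27219 genes measured in the 3 pairs 51.6% were higher. Fbln2, the extracellular matrix protein fibulin 2, had 1.1 in the hetero-KO column and 0.584 in the WT column (0.91), with 1.56 and 1.34 on the arrays. Mst1r, a receptor tyrosine kinase, had 0.294 in hetero-KO and 0.186 in WT (0.66), and Igf2os, an antisense RNA at the Igf2 locus, 0.0673 in hetero-KO and 0.0437 in WT (0.62).

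Single genes varied in how far the pair followed the arrays. Hrh3, the histamine H3 receptor, had 11.2 in the hetero-KO column and 10.1 in the WT column (0.16), although it differed by 1.02 and 1.04 on the arrays. Gpc3, a glypican, was at -0.14 against 1.44 and 1.32 on the arrays, and Scin, an actin-severing protein, at -0.35 against 1.27 and 1.11. Of the genes lower on the arrays, Sult1c2, a sulfotransferase, had 0.0103 in hetero-KO and 0.0206 in WT (-1.0), Tmem114 was at -0.56, Zic4, a zinc finger factor, at -0.52 with 5 probes up to 0.33, and Grem1, a BMP antagonist, at -0.00. The chemokine Cxcl5 was at -0.35, the chloride channel Ano1 at -0.25 and the collagen Col12a1, which was higher on the arrays, at -0.12. Tmprss11a, a membrane serine protease, was measured in the WT column alone and was at least 12.3-fold lower.

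Over genes with a mean level of at least 0.1, the differences of the pair correlated more with those of the 4-month arrays (r = 0.36, rho = 0.39, 18368 genes) than with those of the 18-month arrays (r = 0.09, rho = 0.08). Without that minimum the values were r = 0.17 and r = 0.04 over 27219 genes. With minimums of 0.0165, 0.05 and 0.25 in place of 0.1, r with the 4-month arrays was 0.19, 0.30 and 0.38. These are descriptions across genes, which are not independent replicates, and the sex-linked makeup described above is shared by the pair and the 4-month arrays.

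The largest differences of single genes rested on dim probes. Among genes with an official symbol, Apob, an apolipoprotein of liver and gut, was highest (0.0694 in the hetero-KO column, 0.00428 in the WT column, log2 4.02), followed by AU022793 (3.53), the odorant receptor Olfr1417 (3.29), Olfr1311 (3.14), the keratin Krt71 (3.06), Olfr985 (2.94), Cldn34a (2.92), the growth factor Fgf15 (2.70), Olfr531 (2.56), Nlrp4e (2.52), Fam221b (2.52) and prolactin, Prl (2.38). At the other end were Ccdc14 (0.00573 in hetero-KO and 0.228 in WT, -5.31, with -0.87 by its second probe), Olfr1189 (-4.39), Olfr606 (-3.94), the vomeronasal receptor Vmn1r219 (-3.84), Dppa4 (-3.82), Capn13 (-3.46), Spon2 (-3.43), Cyp3a59 (-3.41), Foxn1 (-3.29), Akp3 (-3.28), Bcas1os2 (-2.98) and Ces2b (-2.88). All but 2 of these 24 had 1 measured probe.

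Among genes measured in 1 column alone, the largest bounds higher were at least 46.0-fold for Scgn, the calcium sensor secretagogin, 35.6-fold for Olfr514, 35.1-fold for Tas2r104 and 31.7-fold for Sucnr1. Besides Eif2s3y, the largest bounds lower were at least 38.0-fold for H2-M10.1, 36.4-fold for Naalad2 and 36.0-fold for Olfr1181. Of 58 genes past 2-fold with 2 or more measured probes, 6 had every probe past 2-fold in the same direction and 33 had every probe on the same side of 0.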

How the data were processed

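The authors' deposited table holds, per its values, a linear ratio of each spot's signal to the 75th percentile of its array, with no log and no centring. The deposited scanner files hold spot intensity, and per the submitters' processing notes came from Agilent Feature Extraction 11.5.1.1. Probe coordinates are those of the file headers (mm9). Each 1-colour array has 62976 spots, 59305 of them not controls. Table rows were named through the scanner files' spot numbers, a match that the 4-month columns bear out. No source used here says how the 18-month columns were made.

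Log2 was taken, repeated spots were averaged within probes, and a gene was its probe of highest mean level. The 56605 probes gave 37297 genes. Symbols were updated through RefSeq accessions (33895 probes matched, 1713 symbols changed), with GRCm38.p6 used for names and promoters. A level counted as measured from 0.00411, at and above which 95% of 4-month probe values passed the scanner software's test against background. Genes measured in 1 column alone have a bound, against the higher of that floor and the dim level. The number of arrays, 1 per group, limits the precision.

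Scanner arrays were set to their own 75th percentile. Python 3.11.15, pandas 2.3.3 and limma 3.58.1 (normexp, offset 50) were used.

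Named genes are Zbtb18 and the 2 transcripts beside it, the 12 largest differences in each direction, the 4 largest bounds in each direction, up to 3 members per direction of each list past 1.5-fold or else 2, and genes apart at both ages on the arrays. Further members are named for their known roles. The members, the 56 lists and the named genes were chosen with earlier results of these data known. The mean level minimum of 0.1, counts of list members at 1.5-fold, the chromosome 1 windows, the motifs and the limits for results set apart below were chosen after values were seen. Alternatives in scaling, floor, fold and probe choice were tried. For list medians and genes, a shift was judged against the median SD between probes of a gene, 0.0990, since there are no replicates. Some results are not reported here.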

Additional observations from a re-analysis of the deposited data

Results flagged for a closer look

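In 5 named genes at least 2-fold apart in the pair, the 18-month scanner arrays, which carry the same labels, differed at least 2-fold in the opposite direction. None of these differences was tested. Many named genes were chosen for large differences in the pair, and no share over all genes is given here. Levels in the hetero-KO and WT columns were low for Prl (0.0513 and 0.00987) and Shox2 (0.0203 and 0.120). They were also low for Cst7 (0.0132 and 0.0707) and Ccl8 (0.00645 and 0.0228). Prl, which encodes prolactin, was at a log2 difference of 2.38 in the pair and -1.68 on the 18-month arrays. Shox2 was at -2.56 in the pair and 1.29 on those arrays. Cst7 was at -2.42 and 1.13, and Ccl8 at -1.82 and 1.56. S100a9, a neutrophil protein, was at -1.17 and 1.45, and at -1.74 on the 4-month arrays.

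In 4 lists the medians of the pair and of an array pair were both at least 0.25 from 0 and on opposite sides, which was not tested either. The striatal median was -0.43 in the pair and 1.18 on the 4-month arrays. The meningeal fibroblast median was -0.37 in the pair and 0.42 on the 18-month arrays. The median of disease-associated microglia genes was -0.43 in the pair and 0.37 on the 18-month arrays, and that of border macrophage markers -0.25 and 0.77. The pair and the 18-month arrays also differ in their region markers and in their Y-linked genes, whose part in these differences was not tested.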

How the results depend on the processing

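No paired analysis was possible because each group has 1 column. The counts of genes 2-fold higher and lower, 207 and 264, became 920 and 1062 with no floor, 65 and 76 with 4 times the floor, 656 and 830 at 1.5-fold, 86 and 103 at 3-fold, 2 and 4 where all of 2 or more probes had to pass, and 6 and 20 at a mean level of at least 0.1, an alternative added after seeing the data. Subtracting the median, quantile normalization and loess kept all 56 list medians within the probe spread of 0.0990.

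Other settings moved some medians. With no floor they were -0.0448 for hindbrain, -0.47 for neutrophil, -0.35 for MHC class II, 0.22 for olfactory receptor and 0.26 for Hox genes. With 4 times the floor they were -0.0881 for hindbrain, -0.31 for disease-associated microglia, -0.26 for complement, -0.35 for MHC class II, 0.18 for Hox and 0.11 for keratin genes. With the mean of all probes they were -0.47 for hindbrain, -0.76 for choroid plexus, -0.10 for lymphocyte and -0.29 for MHC class II genes. At a mean level of at least 0.1 they were -0.18 for hindbrain, -0.17 for disease-associated microglia, -0.24 for complement, 0.18 for Hox and 0.0814 for keratin genes. These settings change which genes or probes are counted.

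Of 170 named genes, 167 kept their sign with the mean of all probes. Most of the 170 had no second probe measured in both columns, so this setting could not change them. Their kept sign is no check on probe choice. The values of 35 of the 167 moved by more than the probe spread. The genes that changed sign were Sox17 (0.11), Olfml3 (0.14) and Vamp1 (0.0377), and the causes were not tested. Of genes higher at both ages on the arrays, 10 of 13 were higher in the pair at 2-fold and 23 of 30 with normexp. Of those lower, 5 of 9 and 23 of 28 were lower. Of all 27219 genes 51.6% were higher.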

Other observations

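Outside the neighbourhood of Zbtb18, 45 probes were at least 1.5-fold apart in the same direction in the deposited pair and on the scanner arrays of both ages. Both probes of Krt8 and the probe of Krt18, the keratins of simple epithelia, were among those lower. Krt18 had a level of 0.110 in the hetero-KO column and 0.181 in the WT column, a log2 difference of -0.73, and was at -0.61 and -0.77 on the 4-month and 18-month arrays. Among those higher were both measured probes of Xlr4a (0.68 and 0.73) and 1 probe of Xlr4b (0.92, with 0.58 by its other probe), neighbouring X-linked genes of 1 family whose near-identical copies may share signal. These genes were chosen after their values were seen.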
